A study of Mus musculus with 30 samples.

Results

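Genes of keratinocytes and other epithelia were followed on 30 bead arrays of mouse embryonic fibroblasts (MEFs) and of the tumours that transformed MEFs formed in mice. The set holds 35 genes, chosen by name for their known roles in epidermis and simple epithelia, out of 28888 gene names on the array. A gene is represented by its detected probe with the highest mean. All 35 matched a probe, and 31 passed the filter on low signal (detected on at least 3 arrays). Krt6a, Dsg3, Dsc3 and Ovol1 did not pass it. Krt1 and Esrp1 were found under older symbols, and the Sprr2a probe carries a symbol that several near-identical Sprr2 genes share, so its value is uncertain.

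The 6 groups were Smchd1 null and wildtype samples at 3 stages, with 3 replicates per group. Null cells carry the MommeD1 point mutation of Smchd1 on the FVB/N background, and wildtype cells are FVB/N. Primary MEFs had been kept for 2 to 3 passages. Transformed MEFs of both genotypes had p53 knocked down and HRasV12 overexpressed, and were harvested 2 weeks after that. Tumours of transformed MEFs were taken fresh from nude mice, a host that lacks T cells but keeps its own macrophages, vessels and skin. The tumour replicate is the recipient mouse, with recipients 4 to 6 for null and 1 to 3 for wildtype tumours, and it is the mean of 3 arrays. Whether culture replicates came from separate embryos, and what the arrays of 1 tumour recipient each held, is not given in the labels, so the replicate spread behind each p-value may be technical.

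The epidermis renews itself from a basal layer, whose cells hold the keratin pair Krt5 and Krt14 and depend on the transcription factor Trp63. Cells that leave this layer switch to Krt1 and Krt10 and then build the cornified envelope from loricrin (Lor), involucrin (Ivl) and small proline-rich (Sprr) proteins. Simple epithelia, such as those lining ducts and the gut, use Krt8 with Krt18 and also Krt7 and Krt19. MEFs are taken from whole embryos and are a mixed population, in which fibroblasts prevail.

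Values are log2 intensities after quantile normalization of all arrays together. Background is the 95th percentile of the probes detected on no array, which lay between 6.25 and 6.38 in the 18 replicates. The number of arrays limits the precision. Smchd1 was lower in null than in wildtype cells, by -2.32 ± 0.09 in primary and -2.13 ± 0.10 in transformed MEFs (log2 difference ± SE, n = 3 each). In tumours it differed by -1.18 ± 0.15, with no overlap of the recipients, but was not called there (limma adjusted p = 1). Of 20 fibroblast markers, 19 or 20 were above background in every replicate of every group.

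Nearly the whole set was above background in primary MEFs. In all 3 replicates this held for 33 of 35 genes in null and 31 in wildtype primary cultures, against 16 and 14 in null and wildtype transformed MEFs and 17 and 15 in null and wildtype tumours. Among basal keratinocyte genes it was 5 of 5 in primary cultures of both genotypes, 1 of 5 in transformed MEFs of both genotypes and 0 of 5 in tumours of both. Other roles stayed above background in part. Of the simple epithelial genes, 4 of 4 were so in null and 2 of 4 in wildtype transformed MEFs, and 3 of 4 in tumours of either genotype. For suprabasal and cornified genes it was 5 of 10 in transformed MEFs of both genotypes, 6 of 10 in null tumours and 5 of 10 in wildtype ones. For junction genes it was 4 of 9 in both transformed groups, 5 of 9 in null tumours and 4 of 9 in wildtype ones.

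**Figure D1:**
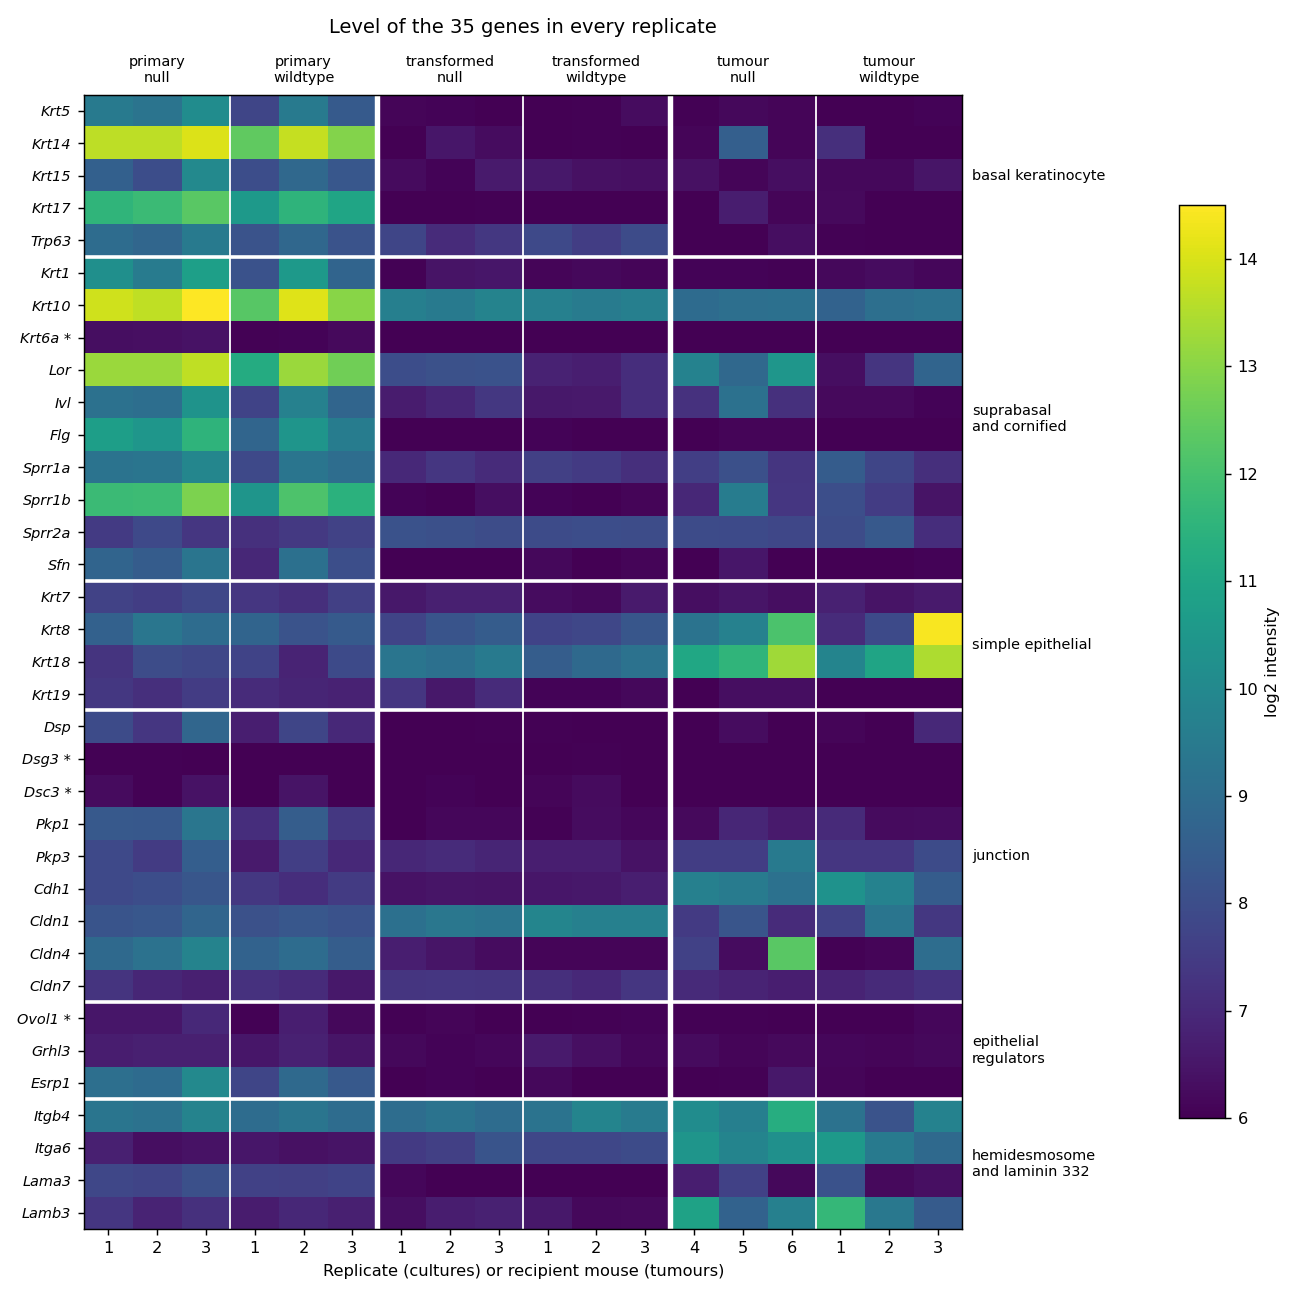
Log2 intensity (colour) of the 35 genes (rows, by role) in the 18 replicates (columns, by stage and genotype), with an asterisk on the 4 genes that did not pass the filter. Basal and suprabasal genes are bright in primary MEFs, while Krt8, Krt18, Cdh1, Itga6 and Lamb3 are brightest in single tumours.

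In primary MEFs, the comparison of null with wildtype asks what loss of Smchd1 changed before transformation. All 31 measured genes had a positive difference in null cultures, and none was called by limma at an adjusted p under 0.05. Over all 13870 genes, 7 were called (0.0505%; 0.0433% higher and 0.00721% lower), and 790 had an unadjusted p under 0.05. The median log2 difference of the set was 0.73, against -0.01 over all genes. The replicates of 6 members (Krt17, Flg, Krt19, Cdh1, Esrp1 and Lama3) did not overlap with null higher, where 4.38% of all genes did so. For no member were they apart with null lower (5.91% of all genes). Except for Cdh1, the 6 were only just apart, as Lama3 at 7.73 in null replicate 2 and 7.70 in wildtype replicate 3. Basal and suprabasal members moved together (median pairwise correlation 0.94 over the 6 cultures), so they are not separate observations. In bulk samples, fewer cells of a type and less RNA per cell cannot be told apart.

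Krt14 stood at 13.65, 13.65 and 14.05 in the null replicates, against 12.41, 13.74 and 12.93 in the wildtype ones. Wildtype replicate 2 lay among the null cultures, and wildtype replicate 1 was the lowest. Its partner Krt5 was at 9.48, 9.26 and 10.15 in null, against 7.76, 9.46 and 8.41 in wildtype cultures, a log2 difference of 1.09 ± 0.40 (adjusted p = 0.845). Krt17, a keratin of activated and appendage keratinocytes, was the basal member whose replicates were apart, though only just. It was at 11.57 to 12.31 in null and 10.56 to 11.52 in wildtype cultures. Trp63 was at 8.99, 8.79 and 9.47 in null, against 8.19, 8.83 and 8.16 in wildtype cultures (0.69 ± 0.22, adjusted p = 0.765). Krt15, a marker of hair follicle bulge cells, differed by 0.47 ± 0.46, with null replicate 2 the lowest of all 6 cultures.

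The genes of the upper epidermal layers followed the same cultures. Krt10 was at 13.89, 13.68 and 14.68 in null, against 12.30, 14.09 and 12.99 in wildtype cultures. Filaggrin (Flg), which bundles keratin filaments in the granular layer, was at 10.76, 10.45 and 11.53 in null and at 8.78, 10.44 and 9.58 in wildtype cultures. Its difference of 1.32 ± 0.41 was the largest of the set, though its null and wildtype replicates were only just apart (adjusted p = 0.729). Lor was at 13.23, 13.21 and 13.68 in null, against 11.22, 13.22 and 12.65 in wildtype cultures. Krt1 (1.05 ± 0.58), Sprr1b (0.82 ± 0.42), Ivl (0.79 ± 0.52), Sfn (0.79 ± 0.48) and Sprr1a (0.73 ± 0.35) had positive differences with overlapping replicates. Sprr2a differed by 0.13 ± 0.17.

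Across the 14 measured basal and suprabasal genes, wildtype replicate 1 was the lowest of the 6 cultures for 12 and null replicate 3 the highest for 13. The mean of the 9 suprabasal and cornified genes was 10.50, 10.38 and 11.16 in the null cultures, against 8.96, 10.67 and 9.88 in the wildtype ones. Without wildtype replicate 1 the median null minus wildtype difference of the set was 0.44, with all 31 differences positive. Without null replicate 3 it was 0.49, with 30 positive, and without wildtype replicate 2 it was 0.91, with 29 positive. No member was called under any of these.

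**Figure D2:**
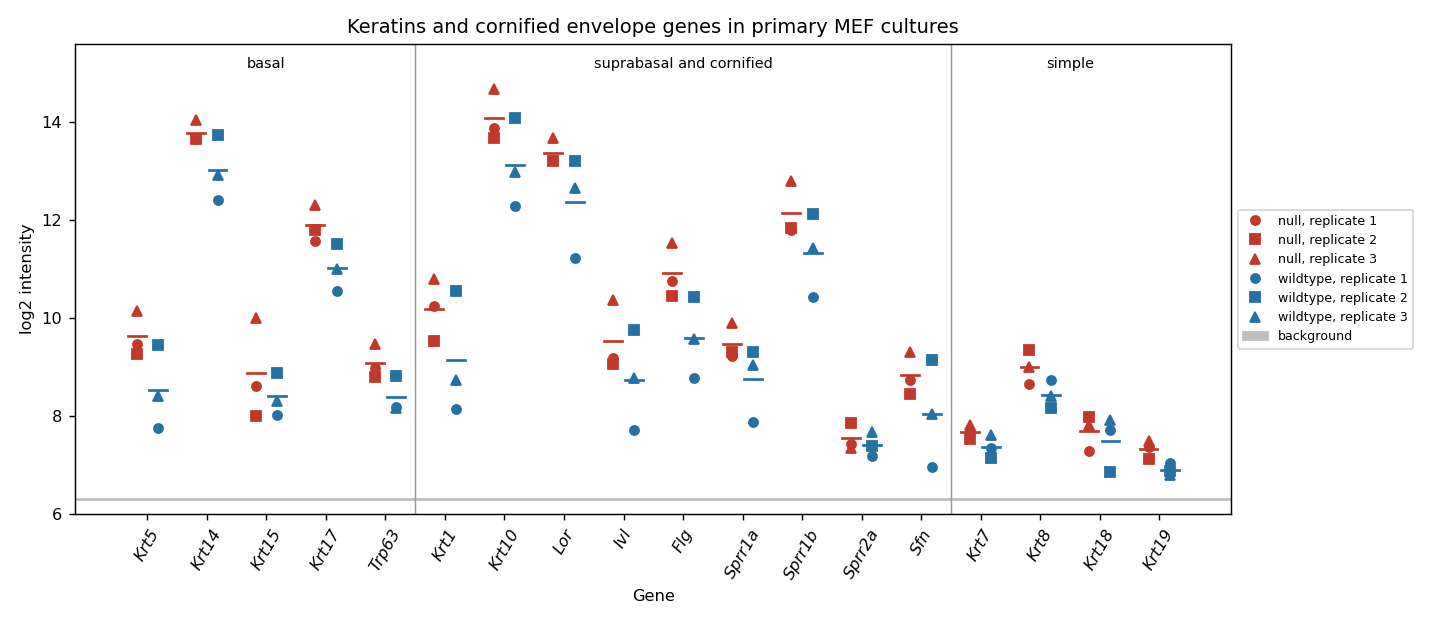
Log2 intensity of the 18 measured basal, suprabasal and simple epithelial genes in each primary MEF culture (symbols, with bars for means of 3 replicates and a grey band for background). Wildtype replicate 2 (blue squares) lies at the height of the null cultures (red) for most basal and suprabasal genes, and wildtype replicate 1 (blue circles) lies lowest.

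The simple epithelial keratins did not follow this order of cultures. Krt8 was at 8.65, 9.35 and 9.0 in null, against 8.73, 8.16 and 8.41 in wildtype cultures, and Krt18 at 7.29, 7.98 and 7.82 in null, against 7.72, 6.85 and 7.92 in wildtype cultures. Wildtype replicate 2, among the highest for the basal keratins, was here the lowest. Krt19 was at 7.38, 7.13 and 7.50 in null and at 7.04, 6.88 and 6.80 in wildtype cultures, without overlap (0.43 ± 0.12, adjusted p = 0.617). Krt7 differed by 0.31 ± 0.14, with overlapping replicates, and fell on transformation, with log2 differences of -0.99 ± 0.12 in null and -1.02 ± 0.12 in wildtype.

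Of the junction genes, E-cadherin (Cdh1), the adhesion protein that holds epithelial cells together, was at 7.89, 8.02 and 8.29 in null, against 7.39, 7.12 and 7.49 in wildtype cultures (0.73 ± 0.14, adjusted p = 0.282). Its replicates did not overlap. The desmosomal genes Pkp1 (1.01 ± 0.39), Pkp3 (0.91 ± 0.30) and desmoplakin (Dsp, 0.86 ± 0.38) had overlapping replicates. So did the claudins of tight junctions, Cldn4 (0.57 ± 0.22), Cldn1 (0.23 ± 0.15) and Cldn7 (0.05 ± 0.19). The splicing regulator Esrp1, which keeps epithelial exons in use, was at 9.10, 8.96 and 10.01 in null and at 7.78, 8.89 and 8.37 in wildtype cultures (1.01 ± 0.33, adjusted p = 0.774). The transcription factor Grhl3, needed for the skin barrier, differed by 0.13 ± 0.11. The differences of the 4 hemidesmosome and laminin genes, which anchor basal cells to the basement membrane, were small, from 0.03 for Itga6 to 0.35 for Lamb3.

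Genes outside the set moved with the same cultures. Of 29 measured further epidermal genes (of 41 listed), 26 were positive, the median was 0.68, and none was called. Dmkn (1.12 ± 0.49), Ly6d (1.03 ± 0.43), Lypd3 (0.97 ± 0.49) and Crct1 (0.97 ± 0.58) had the largest. All 20 measured further epithelial genes (of 33 listed) were positive, with a median of 0.30 and none called. Fibroblast markers had a median of -0.06, with 7 of 20 positive, and macrophage and leukocyte markers one of -0.04, with 4 of 11 positive. For skeletal muscle, all 6 measured markers were on the negative side (median -0.31). The part of cell mixture in the shift of the epithelial genes was not tested.

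**Figure D3:**
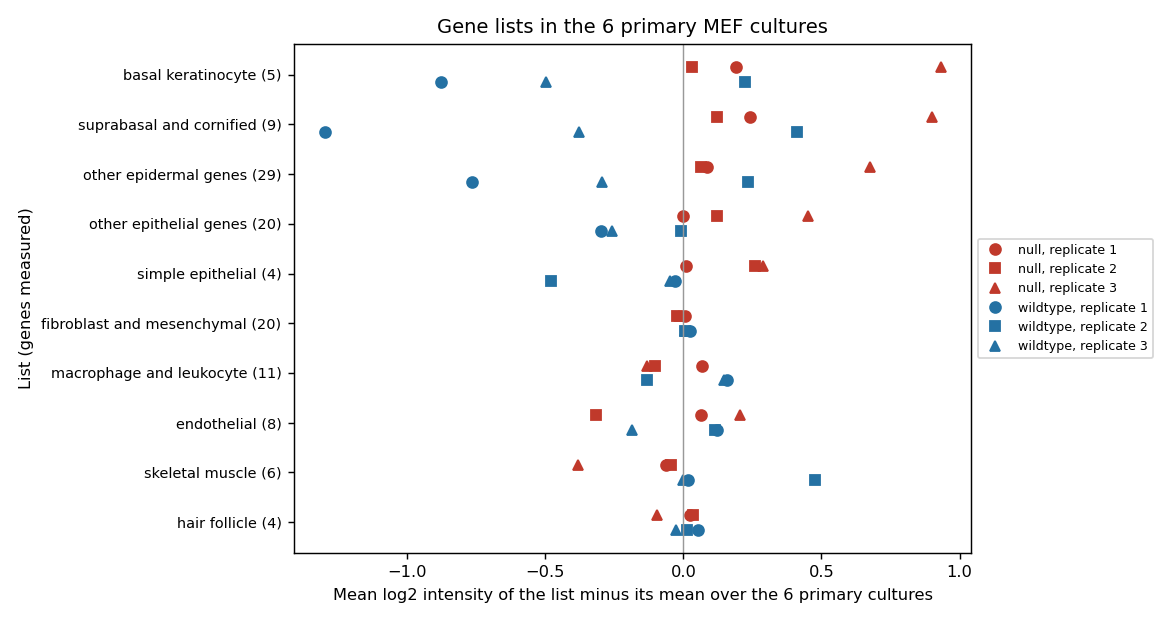
Mean log2 intensity of each gene list in the 6 primary MEF cultures, relative to the list's own mean over them (x axis), with null in red and wildtype in blue. The keratinocyte and epidermal lists spread widest, with wildtype replicate 1 at the low and null replicate 3 at the high end, and the fibroblast list stays near 0.

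Transformed MEFs had lost most of the epidermal signal. In the null background, transformation was followed by lower levels of 22 members and higher levels of 4, and in wildtype by 21 lower and 4 higher (limma, adjusted p under 0.05, out of 31). Over all genes 25.8% were called lower and 29.2% higher in null (55% in all), and 25.5% lower and 26.8% higher in wildtype (52.2% in all). The median log2 difference of the set was -2.01 in null and -1.36 in wildtype, against 0.04 and 0.02 over all genes. Members such as Krt5 and Flg were above background in primary MEFs only and passed the filter through that stage. For such members a fall was fixed in advance, so these counts are a description. Of the 15 members detected on at least 15 arrays, 7 were called lower and 5 higher in null (median -0.86). In wildtype, 6 of them were called lower and 4 higher (median -0.46). By the labels, all primary arrays were on a chip of their own and all transformed arrays on another, so stage and chip cannot be told apart. The null and wildtype comparisons share no samples, but they come from the same fit of all 6 groups and carry the same difference of chips.

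Every basal gene fell. Krt14 was at 6.01, 6.50 and 6.27 in the null and at 6.02, 6.04 and 5.94 in the wildtype transformed replicates, at or close to background, against values above 12 in every primary culture. In wildtype it was at least 101-fold lower than in primary MEFs. Such a fold is a lower bound, taken from means of log2 values with each replicate of the dim group set to its own value or background, whichever is higher, where none of that group is above background. Krt17 was at least 46.4-fold lower in null (log2 -5.90 ± 0.18) and at least 25.3-fold lower in wildtype (-5.08 ± 0.18). Krt5 was at least 9.66-fold lower in null and at least 4.51-fold lower in wildtype. Trp63 stood apart, since it was still above background at 7.78, 7.03 and 7.39 in null and 7.87, 7.53 and 7.93 in wildtype transformed MEFs. It fell by 1.69 ± 0.20 in null (adjusted p = 9.26e-07) and by 0.62 ± 0.20 in wildtype (adjusted p = 0.0135). The wildtype call of Trp63 was lost without primary wildtype replicate 2 (-0.40, adjusted p = 0.113) and without transformed wildtype replicate 2 (-0.50, adjusted p = 0.0686), and also without the filter on low signal (adjusted p = 0.0659).

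Of the 9 measured suprabasal and cornified genes, 8 fell in both genotypes. Sprr1b was at least 55.4-fold lower in null and at least 31.1-fold lower in wildtype transformed MEFs, and Flg at least 23.5-fold and at least 9.37-fold lower. Krt10 fell in both (log2 difference -4.43 ± 0.29 in null and -3.50 ± 0.29 in wildtype) and stayed well above background, at 9.49 to 9.79 in null and 9.52 to 9.70 in wildtype transformed replicates. Sprr2a was called higher, by 0.51 ± 0.14 in null and 0.56 ± 0.14 in wildtype, and these calls were lost with the values as deposited, each stage scaled by itself (0.27, adjusted p = 0.106, and 0.31, adjusted p = 0.0641).

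Loricrin, involucrin, filaggrin and both Sprr1 genes lie on chromosome 3, in the epidermal differentiation complex, a cluster of cornification genes. The 250 bases before each start site are shown because these 5 neighbours fell together and because they share motifs, as RefSeq gives them for GRCm38.p6, read along the gene's own strand. Capitals mark the TATA box (TATAAA) and TGANTCA, a relaxed form of the binding motif of AP-1, a factor of the Fos and Jun families. N stands for any base, where the classical AP-1 site has C or G. The matches in Flg and Sprr1b read TGAATCA and so are not the classical site, while those in Lor, Ivl and Sprr1a are. The windows are chr3:92083143-92083392 (minus strand) for Lor, chr3:92573736-92573985 (minus) for Ivl, chr3:93273296-93273545 (plus) for Flg, chr3:92485882-92486131 (minus) for Sprr1a and chr3:92438780-92439029 (minus) for Sprr1b.
Lor: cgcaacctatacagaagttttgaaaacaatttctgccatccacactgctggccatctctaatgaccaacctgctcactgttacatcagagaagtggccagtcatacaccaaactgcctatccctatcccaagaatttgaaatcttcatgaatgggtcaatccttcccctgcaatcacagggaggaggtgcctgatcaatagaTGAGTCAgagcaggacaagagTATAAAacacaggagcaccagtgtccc
Ivl: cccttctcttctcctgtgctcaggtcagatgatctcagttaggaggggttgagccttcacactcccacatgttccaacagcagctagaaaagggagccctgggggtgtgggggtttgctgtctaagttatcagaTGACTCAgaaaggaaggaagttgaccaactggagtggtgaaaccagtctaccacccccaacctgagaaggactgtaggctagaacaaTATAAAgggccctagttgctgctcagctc
Flg: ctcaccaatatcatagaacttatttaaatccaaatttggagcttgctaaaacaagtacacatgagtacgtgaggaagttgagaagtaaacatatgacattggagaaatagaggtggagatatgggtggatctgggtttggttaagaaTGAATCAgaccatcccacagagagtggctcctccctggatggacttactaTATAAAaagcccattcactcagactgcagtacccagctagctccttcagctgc
Sprr1a: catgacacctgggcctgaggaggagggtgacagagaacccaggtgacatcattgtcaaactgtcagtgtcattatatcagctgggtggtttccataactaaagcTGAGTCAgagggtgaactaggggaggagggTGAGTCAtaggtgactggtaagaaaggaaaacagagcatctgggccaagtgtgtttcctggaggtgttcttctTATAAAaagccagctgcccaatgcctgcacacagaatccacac
Sprr1b: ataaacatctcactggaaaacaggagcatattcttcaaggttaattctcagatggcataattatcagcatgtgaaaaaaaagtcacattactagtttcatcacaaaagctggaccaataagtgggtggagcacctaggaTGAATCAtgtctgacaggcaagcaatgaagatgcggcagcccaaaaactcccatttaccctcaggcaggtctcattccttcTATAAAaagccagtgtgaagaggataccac
A TATA box began 27 bases before the start in Lor, 29 in Ivl, 30 in Sprr1b, 43 in Sprr1a and 53 in Flg. The TGANTCA match lay 48 bases before the start in Lor, 103 in Flg, 111 in Sprr1b and 116 in Ivl. Sprr1a held it at 146 and 116 bases. Windows of 300 bases (250 before to 50 after the start) were searched on both strands for 4 motifs. Promoters of 18 members were matched by symbol, in 20 windows. All 5 members on chromosome 3 with a window held TATAAA and TGANTCA, and none of the matched members elsewhere held both. Sprr2a, also on chromosome 3, had no matched window and did not fall with them. These 5 are neighbours in 1 cluster and are shown because they share motifs, so their count is a description. Among all 32851 windows, 13.6% held TATAAA, 7.81% TGANTCA and 1.54% both. The E-box CACCTG, which the Snail and Zeb repressors bind, was in 12 of the 20 member windows and 20.2% of all, and the GC box GGGCGG in 6 of 20 and 35.7% of all. Krt5, Krt8, Krt10 and Krt18 held CACCTG, and Krt14 held none of the 4. A match describes the letters of the window only.

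The other roles were mixed. Krt18 was higher in transformed than in primary MEFs, by 1.62 ± 0.33 in null (adjusted p = 0.00047) and 1.37 ± 0.33 in wildtype (adjusted p = 0.00218), while its partner Krt8 was not called (-0.86 ± 0.53 and -0.50 ± 0.53). In the fit of only the 2 groups, Krt8 was called lower in null (-0.86, adjusted p = 0.0109), and Lamb3 lower in null (-0.53, adjusted p = 0.0208) and wildtype (-0.46, adjusted p = 0.0146). Krt18 stood at 9.32, 9.14 and 9.50 in null and 8.50, 8.89 and 9.20 in wildtype transformed MEFs, all above every primary culture. With 1 unweighted spread over all groups the Krt18 calls were lost (adjusted p = 0.0716 in null and 0.135 in wildtype; 0.0712 and 0.14 without the filter on low signal), as were those of Cldn1 in null (0.088) and of Cdh1 (0.0778) and Cldn4 (0.0668) in wildtype. These 3 were lost without the filter too (adjusted p = 0.0789, 0.0663 and 0.0589). Cldn1 was higher by 0.84 ± 0.18 in null and 1.57 ± 0.18 in wildtype, and the integrin subunit Itga6 by 1.26 ± 0.18 and 1.39 ± 0.18. Itga6 pairs with Itgb4 in hemidesmosomes, and Itgb4 was not called in either genotype. Cdh1 fell by 1.62 ± 0.15 in null and 0.74 ± 0.15 in wildtype, to between 6.40 and 6.72 in the 6 transformed cultures. Cldn4, Esrp1, Pkp1, Dsp and Lama3 fell in both genotypes, with differences from -3.37 for Esrp1 in null to -1.16 for Dsp in wildtype.

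Further epidermal genes shared this course. Of the 29 measured, 21 were lower and 3 higher in null, and 21 lower and 2 higher in wildtype transformed MEFs, with medians of -1.79 and -1.15. Asprv1, Dmkn, Krtdap and Krt16 had the largest differences, -6.32 to -5.56 in null and -5.32 to -4.78 in wildtype. Markers of other cell types fell too: all 11 macrophage and leukocyte markers were called lower in both genotypes (medians -4.32 in null and -4.28 in wildtype), as were all 6 skeletal muscle markers (-2.03 and -2.35). Fibroblast markers had a median of 0.04 in null and 0.10 in wildtype.

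**Figure D4:**
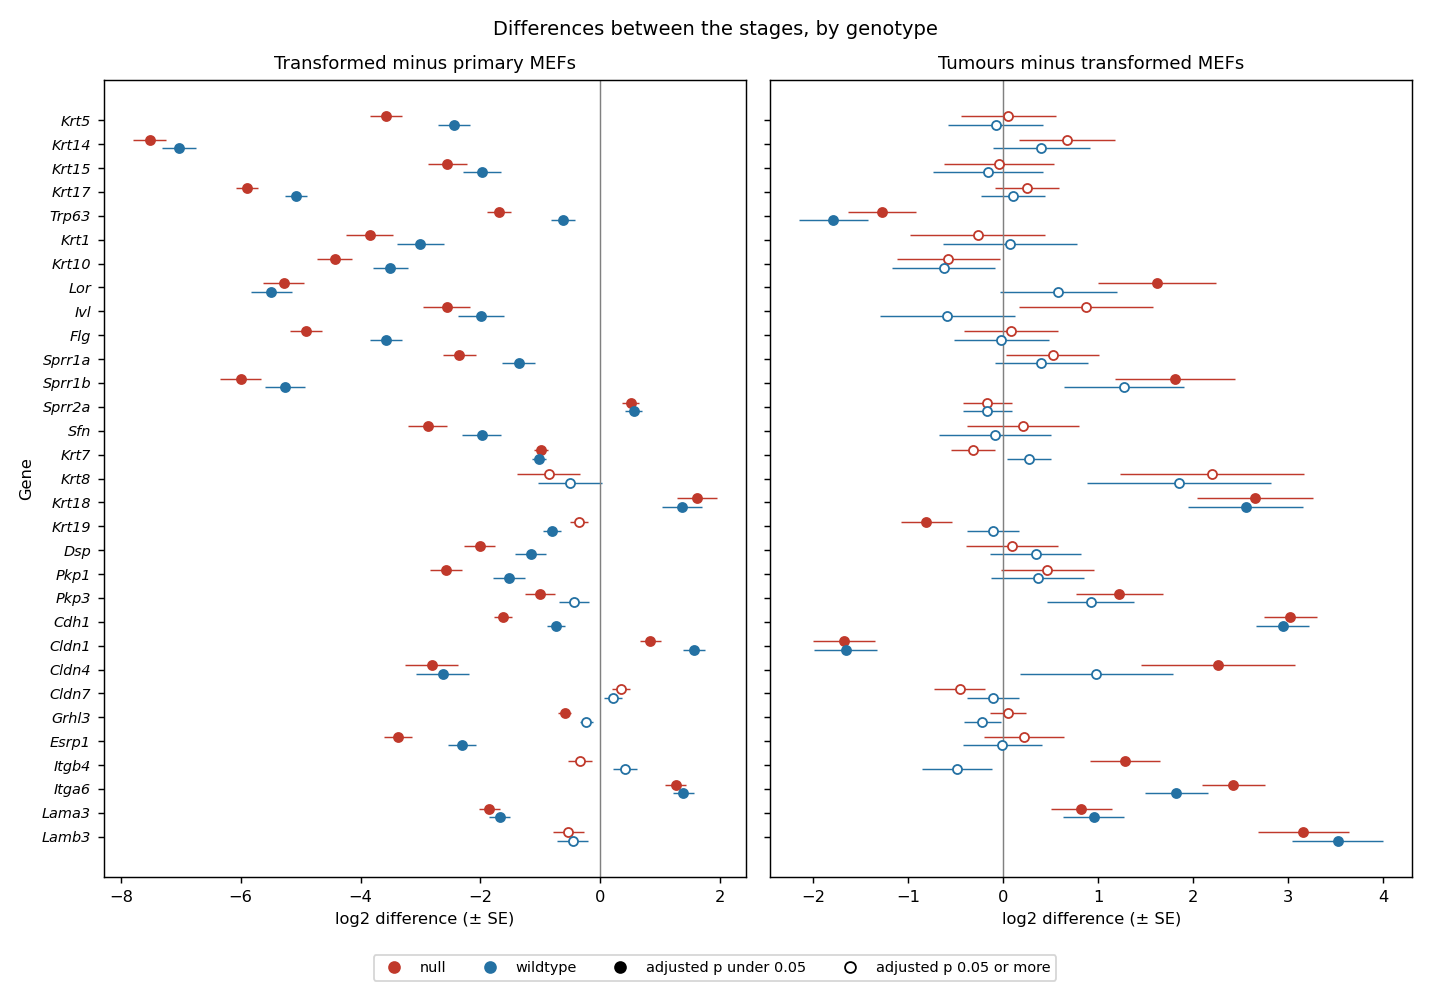
Log2 difference ± SE of the 31 measured members between stages (left, transformed minus primary MEFs; right, tumours minus transformed MEFs; 3 replicates per group), with null in red and wildtype in blue and filled points for an adjusted p under 0.05. Basal and suprabasal genes lie far left of 0 in the left panel, and Krt18, Cdh1, Itga6 and Lamb3 lie right of 0 in both genotypes in the right panel.

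Among transformed MEFs, the null and wildtype cultures differed in few of these genes. Lor was higher in null, Krt19 was higher in null, and Cldn1 was lower in null, which makes 3 of 31 called, where 6.53% of all genes were called. Separately by direction, 2.98% of all genes were called higher and 3.55% lower. The replicates of 4 members (Lor, Krt19, Cldn4 and Pkp3) did not overlap with null higher and those of Cldn1 and Cdh1 with null lower, where 14.4% and 14% of all genes did so. The median of the set was 0.05, against 0 over all genes.

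Lor was at 8.01, 8.11 and 8.15 in null, against 6.80, 6.71 and 7.10 in wildtype transformed MEFs, so the groups were far apart. Its log2 difference was 1.22 ± 0.12 (2.33-fold, adjusted p = 0.00229), and it was called without any single replicate. Krt19 was at 7.34, 6.56 and 7.06 in null, against 6.07, 6.08 and 6.17 in wildtype, where no replicate was above background, which makes it at least 1.54-fold higher in null (0.88 ± 0.18, adjusted p = 0.0291). With all values raised to background its difference was 0.62 and not called (adjusted p = 0.156), nor was it called without the filter on low signal (adjusted p = 0.0795). Cldn1 was at 9.15, 9.38 and 9.27 in null, against 9.88, 9.71 and 9.71 in wildtype (-0.50 ± 0.09, adjusted p = 0.0231). The calls of Krt19 and Cldn1 were lost when any replicate other than null replicate 2 was left out (adjusted p from 0.0553 to 0.0911). With 1 spread shared over all 6 groups, Lor (adjusted p = 0.481) and Cldn1 (0.851) were not called.

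The null minus wildtype difference itself changed with transformation for 1 called member. That of Cdh1 was -0.15 ± 0.09 after transformation and 0.73 ± 0.14 before it, a change of -0.88 ± 0.17 (limma adjusted p = 0.0171). Over all genes 2.36% were called for such a change, 0.836% with a positive and 1.52% with a negative one. The transformed Cdh1 values were 6.40, 6.48 and 6.45 in null, against 6.51, 6.55 and 6.72 in wildtype MEFs, close to background. Without transformed wildtype replicate 3 the change was -0.82 (adjusted p = 0.054), and with 1 spread shared over all 6 groups it was not called (adjusted p = 0.895). Without primary wildtype replicate 2, negative changes of Krt5 (-1.59, adjusted p = 0.0317), Flg (-1.76, adjusted p = 0.0405) and Pkp1 (-1.48, adjusted p = 0.0461) were called as well. Of the 31 members, 26 had a negative change, with a median of -0.58, against 0.01 over all genes. All 31 had a positive difference in primary MEFs. In transformed MEFs, 14 of 35 in null and 17 of 35 in wildtype were above background in no replicate, Krt5, Flg and Pkp1 among them. For members at background in both genotypes, the change restates the primary difference with its sign turned. Among the further epidermal genes, Itga3 (0.79 ± 0.11) was called higher in null transformed MEFs, and none was called lower.

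In tumours, some simple epithelial, junction and laminin genes were higher than in transformed MEFs. The basal keratins lay at or near background in most recipients. Tumour arrays were, by the labels, on other chips than the MEF arrays, so stage and chip cannot be told apart in these comparisons either. By role, 4 of 4 hemidesmosome and laminin genes were called higher in null and 3 of 4 in wildtype. Both counts include Lama3, whose calls were lost under several alternatives given below. Of the 4 simple epithelial genes, 1 was called higher in each genotype and 1 lower in null. Of the 7 measured junction genes, 3 were called higher and 1 lower in null, and 1 higher and 1 lower in wildtype. In null tumours 10 members were called higher and 3 lower, and in wildtype tumours 5 higher and 2 lower. Over all genes 22.8% were called higher and 21.3% lower in null (44.1% in all), and 19.4% and 19% in wildtype (38.4% in all). In either direction, 13 of 31 members were called in null and 7 of 31 in wildtype, no larger a share than over all genes. For higher calls alone, the share was larger than over all genes in null and smaller in wildtype. Krt18, Cdh1, Itga6, Lama3 and Lamb3 were called higher, and Cldn1 and Trp63 lower, in both genotypes. Krt19 was called lower in null (-0.81 ± 0.27, adjusted p = 0.021), but not with the values as deposited (-0.44, adjusted p = 0.16) or raised to background (-0.71, adjusted p = 0.0601), nor without recipient 4 (adjusted p = 0.166) or 5 (0.0744). With the values as deposited, where the median of all genes lies at 0.37 in both genotypes, 11 members were higher and 1 lower in null, and 7 higher and 2 lower in wildtype. The null call of Trp63 was lost there (-0.87, adjusted p = 0.0515). In fits of only the 2 groups compared, the calls of Cldn4 (adjusted p = 0.221), Pkp3 (0.0813) and Sprr1b (0.0502) in null and of Krt18 in wildtype (0.0653) were lost. The same fits called Krt10 (adjusted p = 0.00924) and Cldn7 (0.0188) lower in null and Krt10 (0.0381) lower in wildtype, and Pkp3 (0.0197) and Sprr1b (0.0487) higher in wildtype.

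Krt8 and Krt18 differed widely between mice. Krt8 was at 9.23, 9.72 and 12.08 in null recipients 4, 5 and 6, against 7.03, 7.91 and 14.41 in wildtype recipients 1, 2 and 3. Null recipient 6 and wildtype recipient 3 were far above the rest, and wildtype recipient 1 was below all transformed cultures. Krt18 was at 11.05, 11.57 and 13.28 in null and at 9.84, 10.96 and 13.44 in wildtype recipients, with the same mice at the top. Krt18 exceeded transformed MEFs by 2.65 ± 0.61 in null (adjusted p = 0.00196) and 2.55 ± 0.61 in wildtype tumours (adjusted p = 0.00318), and without wildtype recipient 3 the wildtype difference was 1.54 (adjusted p = 0.0568). Krt8 was not called (2.20 ± 0.97 in null and 1.85 ± 0.97 in wildtype). It was called in wildtype without recipient 1 (3.22, adjusted p = 0.0318), and in null with the values as deposited (2.72, adjusted p = 0.0243) and in the fit of only the 2 groups (2.20, adjusted p = 0.0358).

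Within each genotype, Cldn4, Pkp3 and Itgb4 were highest in the same mice, while Cdh1 was lowest there. Over the 6 recipients, the correlation with Krt8 was 0.72 for Cldn4, 0.59 for Pkp3 and 0.56 for Itgb4. It was -0.98 for Cdh1, -0.86 for Sprr2a, -0.66 for Lamb3 and -0.59 for Itga6, so the members did not share 1 order of mice. Cldn4 was at 7.64, 6.27 and 12.33 in null and at 6.06, 6.13 and 9.05 in wildtype recipients. Its call in null tumours (2.26 ± 0.81, adjusted p = 0.0317) was lost without recipient 6 (0.47, adjusted p = 0.591), without transformed null replicate 3 (2.16, adjusted p = 0.0548), with the shared spread (0.0843) and without the filter (0.165), and the difference was 3.49 without recipient 5. The plakophilin Pkp3 was at 7.55, 7.53 and 9.46 in null and at 7.35, 7.33 and 7.94 in wildtype recipients, and Itgb4 at 10.14, 9.68 and 11.30 in null and 9.19, 8.19 and 9.76 in wildtype recipients. The null differences from transformed MEFs were 1.22 ± 0.46 for Pkp3 (adjusted p = 0.0383) and 1.28 ± 0.37 for Itgb4 (0.00918), and without recipient 6 they were 0.58 (adjusted p = 0.382) and 0.81 (adjusted p = 0.125). The Pkp3 call was also lost without recipient 4 or 5, without transformed null replicate 1 or 3 (adjusted p from 0.0516 to 0.0613), and without the filter (0.0623). The null call of Lor (1.62 ± 0.62, adjusted p = 0.0437) was lost whichever single replicate was left out, at 1.24 to 2.03, and without the filter (adjusted p = 0.0644), and that of Sprr1b (1.81 ± 0.63, adjusted p = 0.0255) without recipient 5 (1.00, adjusted p = 0.331). The mean of 20 fibroblast markers was 11.21, 11.09 and 10.64 in null and 11.33, 11.10 and 11.01 in wildtype recipients, lowest in null recipient 6, and its part in these levels was not tested.

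Cdh1, in contrast, was high in every tumour. It stood at 9.69, 9.53 and 9.17 in null and at 10.34, 9.77 and 8.49 in wildtype recipients, against 6.40 to 6.72 in transformed cultures. The differences were 3.02 ± 0.28 in null (8.12-fold, adjusted p = 2.78e-07) and 2.94 ± 0.28 in wildtype (adjusted p = 3.7e-07). Lamb3, a chain of the laminin of the epidermal basement membrane, was at 10.90, 8.68 and 9.69 in null and at 11.66, 9.41 and 8.43 in wildtype recipients, higher by 3.16 ± 0.48 in null and 3.52 ± 0.48 in wildtype. Itga6 was higher by 2.42 ± 0.33 in null and 1.82 ± 0.33 in wildtype. Lama3, which codes for another chain of that laminin, was at 6.73, 7.63 and 6.17 in null and at 8.14, 6.22 and 6.35 in wildtype recipients. It was above background in no transformed replicate. The null call was lost without recipient 4 (0.88, adjusted p = 0.11) or 5 (0.43, adjusted p = 0.40). It was also lost without transformed null replicate 2 (adjusted p = 0.0722) or 3 (0.0634). The wildtype call was lost without recipient 1 (0.33, adjusted p = 0.45). Fits of only the groups compared lost both calls (adjusted p = 0.0848 in null and 0.191 in wildtype). So did values raised to background (0.51, adjusted p = 0.208 in null and 0.55, adjusted p = 0.189 in wildtype). Both were lost too with the shared spread (adjusted p = 0.0876 and 0.0574) and without the filter (0.161 and 0.107).

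Krt5 was at background in all 6 recipients, between 5.99 and 6.17. Trp63 was lower than in transformed MEFs by 1.28 ± 0.36 in null (adjusted p = 0.00804) and at least 2.85-fold in wildtype tumours (adjusted p = 8e-04), and null recipient 6 alone was above background, at 6.32. The null call of Trp63 was lost without recipient 4 (-1.23, adjusted p = 0.0692) and without recipient 5 (-1.23, adjusted p = 0.0623). Krt14 was above background in null recipient 5, at 8.58, and wildtype recipient 1, at 7.14, and in no other. Krt15 was just above background in 3 recipients, at 6.39 and 6.32 in null recipients 4 and 6 and 6.47 in wildtype recipient 3, and Krt17 in null recipient 5, at 6.69. Flg, Krt1 and Grhl3 stayed at or near background, at no more than 6.29.

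The arrays of a single mouse were not alike for these genes. Krt14 on the 3 arrays of null recipient 5 read 9.44, 10.21 and 6.07, so that 1 array was at background. On those of wildtype recipient 1 it read 6.29, 8.96 and 6.18, with a single array high. Krt17 went with it, at 6.60, 7.55 and 5.92 in null recipient 5 and at 5.98, 6.65 and 6.03 in wildtype recipient 1. Lor, in the same recipients, read 8.68, 8.92 and 9.02 in null recipient 5 and 6.35, 6.37 and 6.25 in wildtype recipient 1, close together on all arrays. Lamb3 in wildtype recipient 3 read 7.84, 6.98 and 10.47, and Itga6 there 10.01, 9.65 and 7.10. Of 186 pairs of a measured member and a recipient, the arrays lay more than 1 log2 unit apart in 41, over 18 members, and the median range was 0.35. By the labels, each of the 3 arrays of a mouse was on a different chip.

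**Figure D5:**
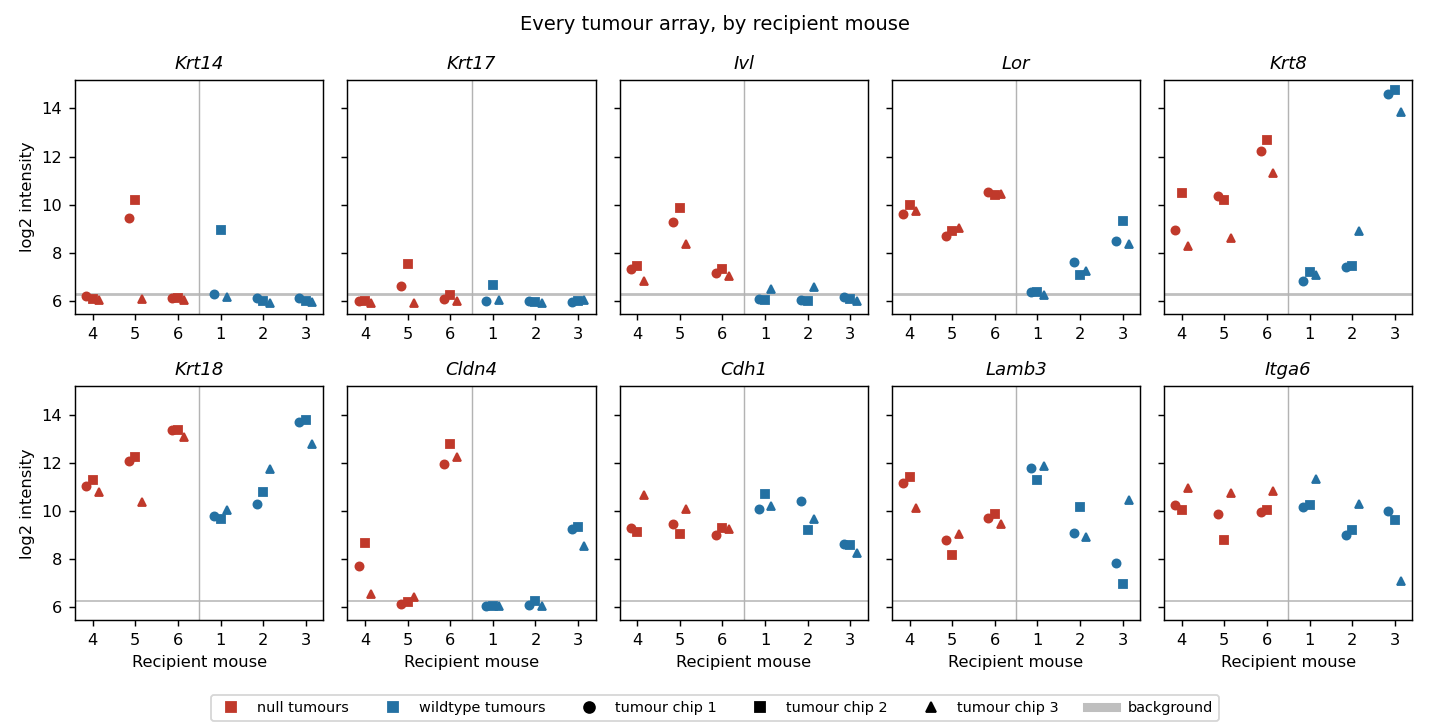
Log2 intensity of 10 members on every tumour array, by recipient mouse (null, 4 to 6, in red on the left; wildtype, 1 to 3, in blue on the right), with a symbol for each of the 3 chips and background in grey. Krt14 is high on 2 of 3 arrays of recipient 5 and on 1 of recipient 1, while the arrays of Lor lie within 0.37 of each other in 4 of the 6 mice.

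Host cells were present in the tumours by their markers. All 11 macrophage and leukocyte markers were higher than in transformed MEFs in both genotypes, with medians of 3.82 in null and 4.14 in wildtype, and the list mean was 11.11, 11.07 and 10.41 in null and 11.03, 11.51 and 10.98 in wildtype recipients. Of the 8 measured endothelial markers, 5 were called higher in null and 6 higher and 1 lower in wildtype tumours. The part of host cells in the levels of the epithelial genes was not tested. Among further epidermal genes, 4 of 29 were called higher and 1 lower in null, and 4 higher and 2 lower in wildtype, with Cdh3, the P-cadherin of basal cells, lower by -1.52 ± 0.22 in null and -1.85 ± 0.22 in wildtype. Of the further epithelial genes, the transcription factors Tfap2c and Klf5 were called higher in both genotypes (by 1.67 and 0.90 in null, and 1.77 and 0.80 in wildtype).

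Null and wildtype tumours were not told apart in any member by limma, and in no gene of all (0%; 313 of 13870 had an unadjusted p under 0.05). With 1 spread shared over all groups 19 genes were called, none of them a member. Of the 31 members, 22 were positive, and the median was 0.09, against 0 over all genes. The recipients of 3 members were apart with null higher, where 3.57% of all genes were so, and those of 1 with null lower (3.11% of all genes).

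Lor and Ivl were higher in every null tumour than in any wildtype tumour. Lor was at 9.78, 8.87 and 10.46 in null, against 6.32, 7.31 and 8.73 in wildtype recipients, a difference of 2.25 ± 0.68 (adjusted p = 1). It was 2.12, 2.19 and 2.45 on the 3 tumour chips taken alone, which hold arrays of the same mice and so are not separate tests. The nearest recipients, null 5 at 8.87 and wildtype 3 at 8.73, were only just apart. Their single arrays overlapped, at 8.68 to 9.02 and 8.36 to 9.31. Lor was called higher in null transformed MEFs too, as was Krt19, whose recipients were at background or nearly so in tumours of both genotypes. Ivl was at 7.20, 9.17 and 7.17 in null, against 6.20, 6.20 and 6.09 in wildtype recipients, where it was not above background, and was thus at least 2.99-fold higher in null (1.68 ± 0.55, adjusted p = 1). Null recipient 5, the highest for Ivl, was the highest mouse for 7 of the 14 measured basal and suprabasal genes, Krt14, Krt17 and Sprr1b among them. Over the recipients, the correlation with Krt14 was 0.77 for Ivl, 0.94 for Sprr1b and -0.19 for Lor. The part of this mouse's epidermal signal in the Ivl difference was not tested. The other members whose recipients did not overlap, Flg and Krt1, lay at background on both sides or nearly so. Itgb4 differed by 1.33 ± 0.55 and Cldn4 by 1.66 ± 1.68, both with overlapping recipients.

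The change of the null minus wildtype difference between transformed MEFs and tumours was not called for any member, nor for any gene (0%; 800 had an unadjusted p under 0.05). For Lor it was 1.04 ± 0.88, for Ivl 1.45 ± 1.01 and for Itgb4 1.77 ± 0.52 (adjusted p = 0.506). The mean of the 6 skeletal muscle markers was 8.06, 7.02 and 9.21 in null and 7.46, 6.96 and 6.87 in wildtype recipients, with all 6 differences positive and none called.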

How the data were processed

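RNA from MEFs and tumours was measured on Illumina bead arrays. The log2 intensities used were deposited by the authors, who processed them with BeadStudio, limma 3.12.1 and R 2.15.1, per the submitters' processing notes; the values show quantile normalization within each stage. They were quantile normalized again over all 30 arrays. The scanner tables have 480 array columns that match no label. Of these only the deposited detection p-values were used, which BeadStudio wrote per the file headers. They were pooled, and a probe counts as detected on an array at p under 0.01, without knowing which sample the array held. The planned use of scanner intensities was dropped. Gene names came from these tables through their common row order. Probes detected on at least 3 arrays were kept, 1 per gene, the one with the highest mean.

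Null and wildtype were compared within a stage by a fit of those groups (limma 3.58.1, R 4.3.3). Stages, and the genotype difference in tumours minus that in transformed MEFs, were compared in a fit of all 6 groups with array weights by stage, and the genotype difference in transformed minus that in primary MEFs in a fit of the 4 culture groups. P-values were Benjamini-Hochberg adjusted over 13870 genes, with a threshold of 0.05. Alternatives changed the fit, scaling, filter, floor, probe choice, replicate block and replicates. The fits were tested on simulated data, where false calls stood near the threshold for null against wildtype within a stage and clearly above it for the comparisons between stages and the changes of the genotype difference, so those calls hold more false ones than the threshold states. All 35 members were named, of other lists up to 4 with the largest differences and those a result turned on. The members and lists were chosen with earlier results of these data known. Promoter sequences came from RefSeq. Some genes of the further lists are not reported here.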

Additional observations from a re-analysis of the deposited data

Results flagged for a closer look

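The Cdh1 result met a rule for a closer look, since the null minus wildtype difference was itself tested between stages. For Cdh1 it was lower in transformed than in primary MEFs, by -0.88 ± 0.17 (limma adjusted p = 0.0171). The 3 null primary cultures lay above the 3 wildtype ones, and the 3 null transformed cultures lay below the wildtype ones, at levels close to background.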

How the results depend on the processing

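Between null and wildtype, 7 genes were called at the primary stage, 906 at the transformed stage and 0 in tumours, and the next counts keep this order. With 1 spread shared over all 6 groups it was 15, 147 and 19, and without the filter 2, 601 and 0. In primary MEFs it was 11 for probes detected on at least 15 arrays, 2 with values raised to background and 2 with the replicate number as a block. In tumours it was 7 with the replicate block on all 18 arrays and 0 on each chip alone. Between transformed and primary MEFs the shared spread gave 5027 calls in null and 4558 in wildtype, against 7626 and 7246. For the change of the genotype difference it gave 30 against 327 in cultures and 8 against 0 in tumours, where no filter gave 6. Leaving out 1 replicate gave 2 to 4, 243 to 552 and 0 genes for the genotype comparisons, 6949 to 7210 (null) and 6372 to 6826 (wildtype) for transformed minus primary, 3923 to 6002 and 3270 to 5719 for tumours minus transformed, and 171 to 370 and 0 to 4 for the changes.

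Members called in transformed MEFs numbered 1, not 3, with the shared spread. Between transformed and primary MEFs they numbered 12 in null and 10 in wildtype with the stricter filter, which leaves 15 members, against 26 and 25. In null tumours against transformed MEFs it was 8, not 13, with values raised to background. For the change in cultures it was 0 with the shared spread, and 2 with the values as deposited or the stricter filter, against 1. Leaving out 1 replicate gave 1 to 3 in transformed MEFs, 26 to 27 (null) and 24 to 27 (wildtype) for transformed minus primary, 7 to 11 and 6 to 7 for tumours minus transformed, and 0 to 4 for the change in cultures. With the values as deposited, 82.6% of calls in null and 84.4% in wildtype tumours were higher than in transformed MEFs, against 51.7% and 50.5%, and 43.8% in null and 41.2% in wildtype transformed MEFs were higher than in primary MEFs, against 53.1% and 51.2%. The replicate block moved the other counts of genes by less than 1.5 times (682 calls in transformed MEFs, 7479 in null and 7101 in wildtype for transformed minus primary, and 284 for the change in cultures). Same-numbered null and wildtype cultures deviated together little (correlations 0.03, -0.32 and -0.09 in primary and 0.06, 0.05 and 0.04 in transformed MEFs), so the numbers were not taken as pairs. With the block, Cldn1 in transformed MEFs (adjusted p = 0.0553) and Trp63 in wildtype transformed minus primary MEFs (0.0507) were not called, while Krt8 in null (-0.86, 0.0062) and Lamb3 in null (-0.53, 0.0188) and wildtype (-0.46, 0.0363) were called lower. Where no value shows it, the cause was not tested.

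Low signal limits the genes near background, and 3 replicates a group allow no two-sided permutation p under 0.1.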
